A study of Mus musculus with 40 samples.

Results

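Astrocytes clear glutamate and GABA from around synapses and return them to neurons as glutamine, and 8 genes of that cycle were followed here through RNA of the mouse striatum. They were taken by name from the 24060 gene rows of the deposited count table: Slc1a2 and Slc1a3, the glutamate transporters GLT1 and GLAST. Slc6a11 encodes the GABA transporter GAT3, Glul glutamine synthetase, Glud1 glutamate dehydrogenase, Gad1 and Gad2 the glutamate decarboxylases GAD67 and GAD65, and Abat GABA transaminase. All 8 passed the filter on low counts in each comparison.

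As background, glutamate released by cortical and thalamic axons is taken up into astrocytes mostly by GLT1 and GLAST, converted to glutamine by glutamine synthetase, and exported to neurons, which turn it back into glutamate. Striatal neurons are mostly GABAergic. They make GABA from glutamate with GAD67 and GAD65, and GABA is taken up by GAT3, among other transporters, and broken down by GABA transaminase in mitochondria. Glutamine synthetase is known in brain mainly from astrocytes, and GAD67 and GAD65 from GABAergic neurons.

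The data were 40 RNA-seq libraries of mouse striatum, in 10 groups of 4. In RiboTag, an AAV expresses the ribosomal protein RPL22 with a haemagglutinin tag from a cell-type promoter, and ribosome-bound RNA is purified with an antibody to the tag (IP) beside the RNA of the whole lysate (input). The astrocyte RiboTag cohort (astrocyte IP and its input, strain C57/BL6NTac, labelled Control) and the neuron RiboTag cohort (neuron IP and its input, C57/BL6NTac, WT) received, per the study's methods, the GfaABC1D or the hSYN1 construct in the dorsal striatum as adults aged 6 weeks. The labels do not give the AAV of the Control libraries. Their assignment to the astrocyte construct rests on the methods, and their markers are given below. The SAPAP3 cohort comprised IP and input of WT mice (C57/BL6J) and of SAPAP3 KO mice (C57/BL6J-Dlgap3 KO), injected at 4.5 months. No source used here names the cell type of its RiboTag. Bulk striatal RNA came from WT and SAPAP3 KO mice, both labelled C57/BL6NTac. One animal number stands on both a bulk WT and a bulk KO library. Expression from an AAV reaches only transduced cells, and each IP therefore samples a part of the cells of a type.

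Depth was 23438112 to 84109800 counted reads per library. Dlgap3, which encodes SAPAP3, was at 166 to 200 CPM (counts scaled to 1000000 per library) in KO input against 376 to 514 CPM in WT input, at 49.8 to 87.2 against 154 to 212 CPM in the IP, and at 144 to 161 against 232 to 386 CPM in bulk RNA. The groups did not overlap, and counts per gene do not separate the deleted part. The 10 astrocyte markers (Aqp4, Gja1, Aldh1l1 and others) summed to 1876 to 1975 CPM in astrocyte RiboTag input and 10050 to 10380 CPM in its IP, and all 10 were called higher. In the neuron IP they summed to 1457 to 1780 CPM against 2056 to 2234 CPM in input. The SAPAP3 IP groups had 8436 to 11880 CPM against 2057 to 2334 CPM in their inputs, with all 10 called higher in both genotypes. The medium spiny neuron markers fell from 9690 to 10130 CPM in astrocyte RiboTag input to 4047 to 5045 CPM in its IP, with 4 of 10 called lower. They were at 7709 to 10000 CPM in neuron IP against 4462 to 6200 CPM in its input, with 3 of 10 called higher. The shares of all genes were 13.5% and 0.420%. The 8 pan-neuronal markers summed to 3848 to 3919 CPM in astrocyte RiboTag input and 3240 to 3649 CPM in its IP. In the neuron cohort they summed to 5495 to 6274 CPM in input and 6582 to 7595 CPM in IP. None of these 8 was called in either IP. Markers of GABAergic interneurons, another source of GAD67 and GAD65 in striatum, summed to 261 to 269 CPM in astrocyte RiboTag input and 891 to 1028 CPM in its IP. Of these markers 6 of 8 were called higher, against 13.4% of all genes. Pvalb had a lower mean in this IP (11.5 against 23.9 CPM), as had Calb2 (3.79 against 6.05 CPM, with overlap). No marker of any of the 8 lists was at 0 throughout a group. Libraries that stood apart by markers were SAPAP3 WT input replicate 1 (spiny neuron markers 9714 CPM against 5235 to 5966 CPM in the other 3, cortical neuron markers 108 CPM against 430 to 545 CPM) and bulk WT replicates 2 and 3 (8196 and 10820 CPM against 4953 and 5557 CPM, cortical 260 and 226 CPM against 636 and 713 CPM).

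The genes lie on different chromosomes of GRCm38.p6 (mm10), apart from 3 on chromosome 2, and none lies on chromosome 4, where Dlgap3 is. Slc1a2 spans chr2:102658239-102790784, Slc1a3 chr15:8634124-8710807, Slc6a11 chr6:114131241-114249886, Glul chr1:153899929-153909723, Glud1 chr14:34310727-34345033, Gad1 chr2:70561303-70602014, Gad2 chr2:22621015-22693877 and Abat chr16:8513429-8621568. None has a near-identical copy, defined as at least 95% identity over at least 50% of the transcript. Short of that, Gad1 has 1 other place in the genome (91.2% identity over 95.6% of the transcript). Glul has 3 (best 88.4% over 88.7%) and Glud1 has 2 (best 97.2% over 33.9%). Their effect on the counts was not tested. A strand setting for the counting is not given in the sources used here. Exons of Slc1a2 overlap the antisense RNA Gm13872 by 166 bases, Glul holds Mir8114 (108 bases) and Gad2 holds Mir3967 (68 bases) on its own strand, so reads there may be counted for either gene or left out.

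Start-site windows of 300 bases, 250 before and 50 after the start listed by RefSeq (GRCm38.p6), were found for 7 of the 8 genes. The transporters Slc1a2, Slc1a3 and Slc6a11 are shown because they were higher in the astrocyte IP and lower in the neuron IP, and Gad1 and Gad2 because they were not. Capitals mark each CG dinucleotide, and every window is printed 5′ to 3′ on the strand of its gene.
Slc1a2, chr2:102706188-102706487, plus strand: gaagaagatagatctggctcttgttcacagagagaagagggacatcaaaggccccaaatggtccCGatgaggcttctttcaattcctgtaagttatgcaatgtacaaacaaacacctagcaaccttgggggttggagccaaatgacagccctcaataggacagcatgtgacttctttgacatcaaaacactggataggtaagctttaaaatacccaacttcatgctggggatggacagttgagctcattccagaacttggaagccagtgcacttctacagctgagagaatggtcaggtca
Slc1a3, chr15:8710758-8711057, minus strand: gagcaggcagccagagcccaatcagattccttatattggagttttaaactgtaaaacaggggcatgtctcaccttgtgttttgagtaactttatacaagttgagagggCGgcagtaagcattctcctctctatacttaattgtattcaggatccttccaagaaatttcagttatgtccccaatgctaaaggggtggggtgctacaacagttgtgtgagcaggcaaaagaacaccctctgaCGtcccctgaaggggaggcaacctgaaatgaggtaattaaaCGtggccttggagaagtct
Slc6a11, chr6:114130991-114131290, plus strand: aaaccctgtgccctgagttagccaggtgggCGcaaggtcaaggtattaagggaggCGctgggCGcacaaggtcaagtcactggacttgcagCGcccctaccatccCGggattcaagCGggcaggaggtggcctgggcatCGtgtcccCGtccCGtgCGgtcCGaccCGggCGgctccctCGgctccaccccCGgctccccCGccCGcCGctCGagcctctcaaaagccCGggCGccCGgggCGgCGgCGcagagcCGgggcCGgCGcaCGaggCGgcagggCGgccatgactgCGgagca
Gad1, chr2:70561879-70562178, plus strand: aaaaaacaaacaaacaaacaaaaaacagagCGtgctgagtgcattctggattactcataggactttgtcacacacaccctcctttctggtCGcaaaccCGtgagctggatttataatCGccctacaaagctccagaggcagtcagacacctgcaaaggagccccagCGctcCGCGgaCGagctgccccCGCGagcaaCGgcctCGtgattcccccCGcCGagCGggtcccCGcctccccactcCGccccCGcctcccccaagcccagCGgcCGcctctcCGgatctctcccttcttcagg
Gad2, chr2:22622077-22622376, plus strand: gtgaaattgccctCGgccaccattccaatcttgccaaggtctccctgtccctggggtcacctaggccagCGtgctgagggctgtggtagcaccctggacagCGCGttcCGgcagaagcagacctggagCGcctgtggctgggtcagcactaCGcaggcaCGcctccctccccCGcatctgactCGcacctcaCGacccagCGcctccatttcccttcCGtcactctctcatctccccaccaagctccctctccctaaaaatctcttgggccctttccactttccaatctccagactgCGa

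The windows of Slc1a3 and Slc6a11 sit at the annotated 5′ end of the gene, and those of Slc1a2, Gad1 and Gad2 at a start within it. CG dinucleotides were few in the glutamate transporters, with 1 in Slc1a2 and 3 in Slc1a3, and more frequent in Gad2 (14), Glul (17), Gad1 (21), Slc6a11 (32) and Glud1 (51). Among 32851 RefSeq windows of the same length the median was 7, and 14.1% held 1 or none, 31.4% held 3 or fewer and 91.4% held 32 or fewer. Slc1a2 and Glud1, both higher in the astrocyte IP, lie near opposite ends of that range. TATAAA, searched on both strands, was found once in Slc1a3 and once in Gad1, each time on the strand opposite to the gene (TTTATA as printed). By the same search it is in 13.6% of all windows.

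**Figure D1:**
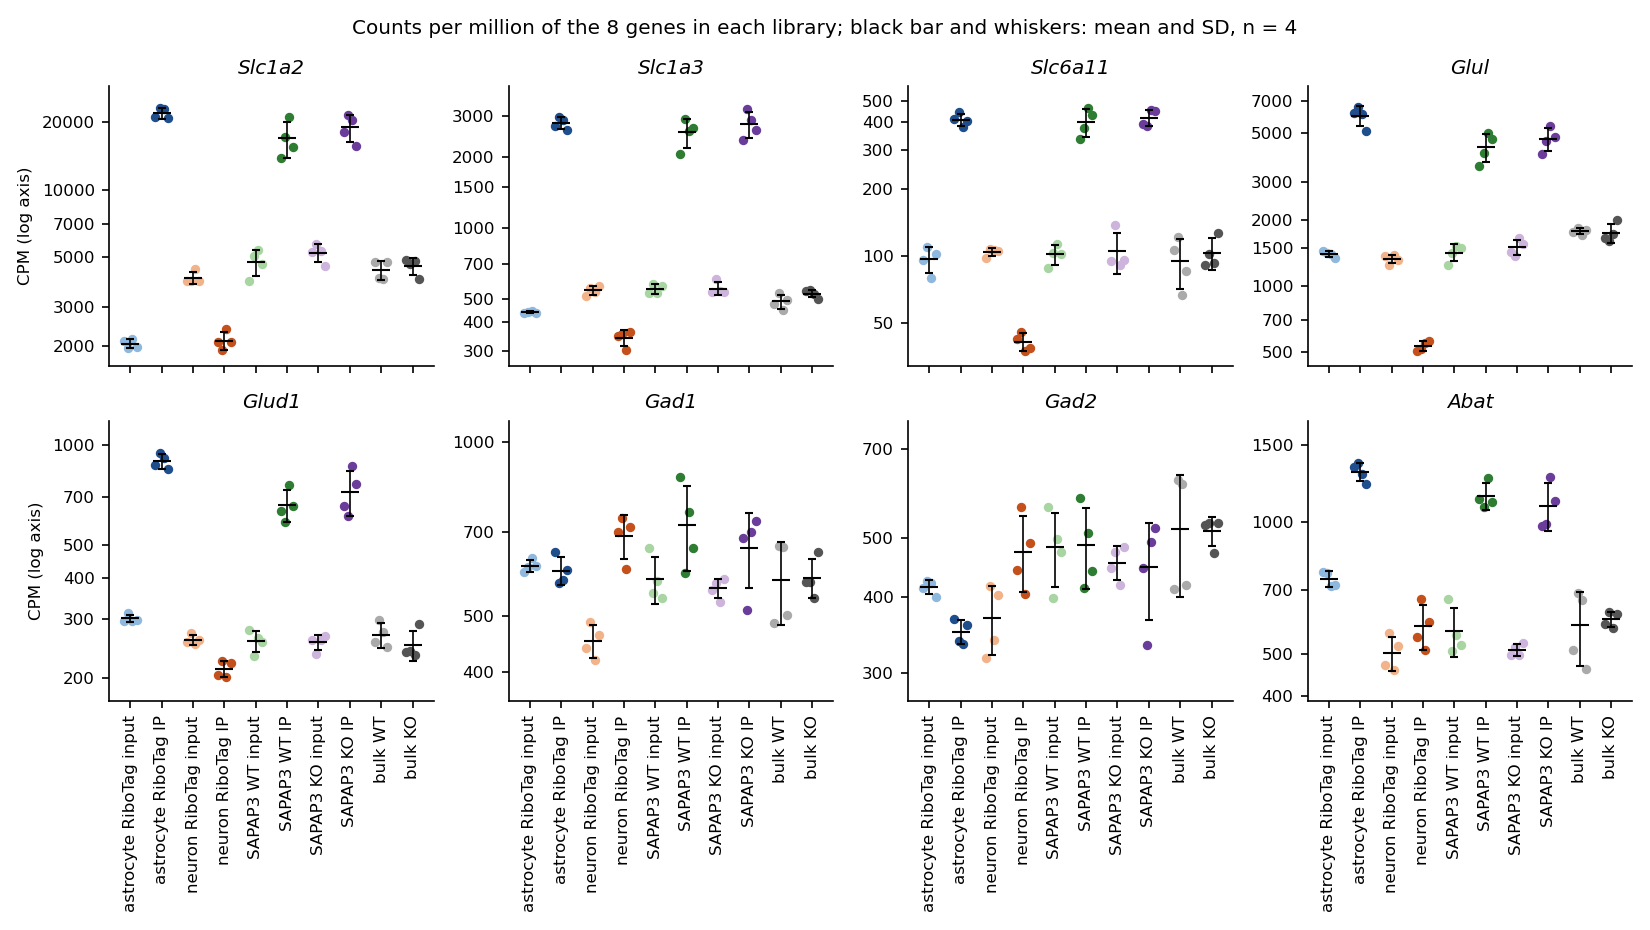
CPM of each of the 8 genes (log axis, a panel per gene) in the 10 groups, with 1 point per library and the mean and SD in black. For Slc1a2, Slc1a3, Slc6a11, Glul, Glud1 and Abat the astrocyte RiboTag IP and both SAPAP3 IP groups lie above every input and bulk library, whereas the groups of Gad1 and Gad2 mostly overlap.

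The genes for glutamate uptake were higher in the astrocyte IP than in its input. Slc1a2 was at 2110, 1963, 2156 and 1991 CPM in the 4 inputs and at 21020, 23170, 22800 and 20780 CPM in the 4 IP libraries. The groups were far apart, and Slc1a2 had the highest mean of all genes in the astrocyte IP. Slc1a2 in this input was below every other input and bulk library, as given below. Its log2(FC) was 3.64 (SE 0.062, adjusted p = 2.7e-12, quasi-likelihood test of edgeR, Benjamini-Hochberg adjusted over all genes tested), a 12.4-fold difference and rank 2 of 15476 genes. Slc1a3 was at 435, 438, 446 and 436 CPM in input and 2719, 2970, 2885 and 2622 CPM in IP, with a log2(FC) of 2.89 (SE 0.048, adjusted p = 2.7e-12).

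GABA uptake and glutamine synthesis followed the same direction. Slc6a11 was at 96.5, 110, 79.8 and 103 CPM in input and 415, 445, 380 and 404 CPM in IP (log2(FC) 2.30, SE 0.086). Glul was at 1443, 1425, 1400 and 1351 CPM in input and 6187, 6555, 6120 and 5119 CPM in IP (log2(FC) 2.32, SE 0.073). Each IP library exceeded each input library for both genes, by 4.93-fold and 4.98-fold in the fit. Glud1, the mitochondrial enzyme that turns glutamate into 2-oxoglutarate, was at 298, 314, 297 and 299 CPM in input and 872, 946, 914 and 845 CPM in IP (log2(FC) 1.79, SE 0.043).

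The 3 GABA enzymes gave unequal values. Abat, which breaks GABA down, was at 771, 767, 713 and 718 CPM in input and 1340, 1367, 1292 and 1225 CPM in IP (log2(FC) 1.04, SE 0.047). It passed the limit of 1 on the log2 scale narrowly, and with library totals in place of TMM scaling its log2(FC) was 0.82. Gad1 was at 595, 608, 630 and 609 CPM in input and 646, 571, 578 and 600 CPM in IP, and Gad2 at 414, 425, 422 and 400 CPM in input and 368, 338, 335 and 360 CPM in IP. By CPM, which rests on library totals, each Gad2 IP library was below each input library and Gad1 overlapped. With TMM scaling between libraries the log2(FC) was 0.19 for Gad1 (SE 0.044, adjusted p = 0.0017) and -0.02 for Gad2 (SE 0.041, adjusted p = 0.60). With library totals in the fit Gad1 was at -0.03 (adjusted p = 0.54), so its direction depended on the scaling, and neither gene passed the limit. The interneuron markers, of which 6 of 8 were called higher in this IP, are given above. Their part in the decarboxylase values was not tested.

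In all, 6 of the 8 genes were called higher and 0 lower in the astrocyte IP, where 13.4% of all 15476 genes tested were called higher and 13.5% lower. The median log2(FC) of the 8 was 2.04 and that of all genes was -0.02. Together the 8 genes took 0.607% ± 0.0116 (SD, n = 4) of the counted reads in input and 3.43% ± 0.194 in IP. In bulk or input RNA, fewer cells of a type and less RNA per cell cannot be told apart.

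**Figure D2:**
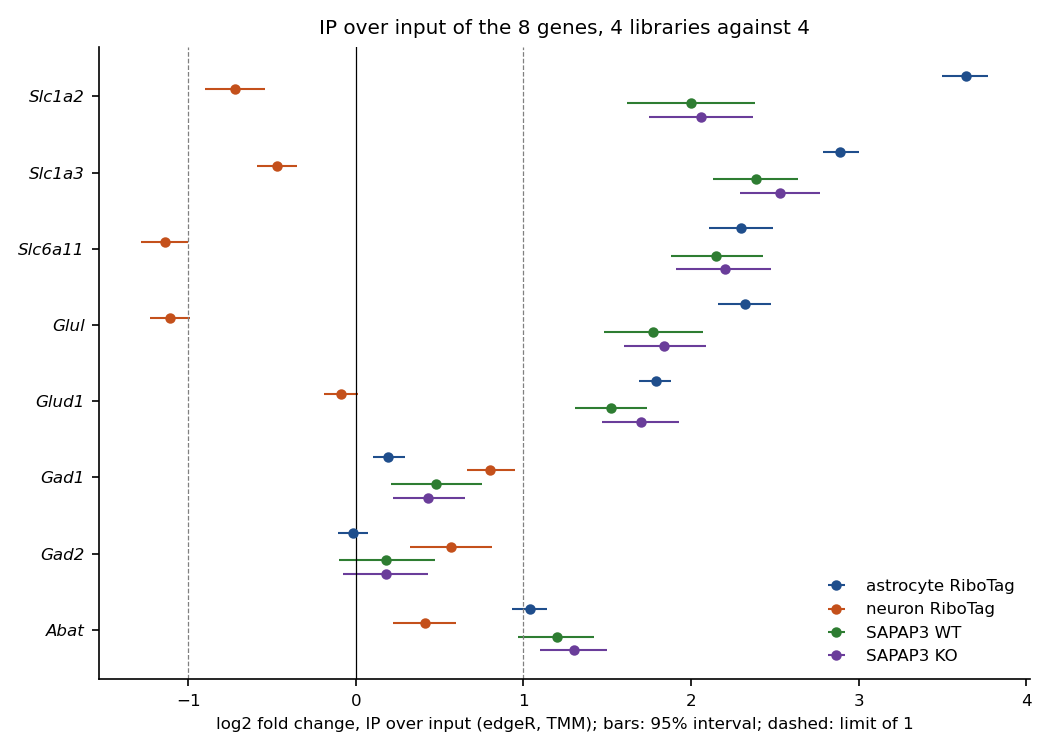
Log2(FC) of IP over input (horizontal axis) for the 8 genes in 4 comparisons of 4 libraries against 4, with 95% intervals and dashed lines at the limit of 1. The glutamate transporters, Slc6a11 and Glul lie above 1 in the astrocyte RiboTag and SAPAP3 cohorts and below 0 in the neuron RiboTag cohort, and Gad1 and Gad2 are highest in the neuron cohort.

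In the neuron IP the uptake genes and glutamine synthetase were lower than in input. Slc6a11 was at 98.9, 108, 107 and 106 CPM in input and 42.8, 45.9, 37.8 and 38.8 CPM in IP (log2(FC) -1.14, SE 0.062, adjusted p = 2.5e-07). Glul was at 1368, 1257, 1387 and 1318 CPM in input and 508, 516, 554 and 561 CPM in IP (log2(FC) -1.11, SE 0.052, adjusted p = 1.2e-07). These 2 genes were the only members past the limit, both lower, where 15.8% of the 16198 genes tested were called lower and 0.420% higher. Their groups did not overlap. Markers of other cells moved the same way in this IP. All 10 oligodendrocyte markers were called lower (1284 to 2060 CPM in sum against 5049 to 6748 CPM in input), as were all 10 microglia and 9 of 10 endothelial markers, and 2 of 10 astrocyte markers. All 10 microglia and all 10 endothelial markers were also called lower in the astrocyte IP and in both SAPAP3 IP groups. The part of these cell types in the members' values was not tested.

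The glutamate transporters were lower in the neuron IP by less than the limit. Slc1a2 was at 3917, 3913, 4403 and 3899 CPM in input and 2091, 1916, 2387 and 2087 CPM in IP (log2(FC) -0.72, SE 0.081, adjusted p = 2.4e-05). Slc1a3 was at 514, 555, 536 and 569 CPM in input and 349, 352.7, 304 and 360 CPM in IP (log2(FC) -0.47, SE 0.053, adjusted p = 2.3e-05). Both sets of libraries were apart. Slc1a2 was still rank 16 of all genes by mean CPM in the neuron IP. The astrocyte markers were also present in this IP, with the sums given above. Their part in the Slc1a2 level was not tested.

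The decarboxylases were higher in the neuron IP. Gad1 was at 440, 488, 420 and 464 CPM in input and 698, 738, 602 and 712 CPM in IP, a log2(FC) of 0.80 (SE 0.065, adjusted p = 2.6e-06). The groups were apart, and that value, below the limit of 1, was rank 215 from the highest of 16198 genes. Gad2 was at 317, 417, 339 and 402 CPM in input and 443, 561, 405 and 491 CPM in IP, with overlapping groups and a log2(FC) of 0.57 (SE 0.109, adjusted p = 9.4e-04). Abat was at 472, 557, 459 and 520 CPM in input and 547, 666, 509 and 591 CPM in IP (log2(FC) 0.41, SE 0.085, adjusted p = 0.0016), again with overlap. Glud1 was at 256, 274, 253 and 261 CPM in input and 205, 225, 201 and 222 CPM in IP. Its CPM were apart and lower in IP, and its log2(FC) with TMM scaling was -0.09 (95% interval -0.19 to 0.01, adjusted p = 0.11). Without a limit on fold change 7 of the 8 genes, all but Glud1, passed in this comparison, as did 71.3% of all genes.

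The difference between the neuron and the astrocyte IP over input was tested as an interaction. All 8 genes passed, as did 70.1% of the 16371 genes tested, so the count by itself sets them apart little. Of the 8, 2 were higher in the neuron cohort and 6 lower, against 35.8% and 34.3% of all genes. The neuron minus astrocyte difference of log2(FC) was -4.36 (SE 0.107) for Slc1a2, rank 16361 of 16371 genes from the highest down. It was -3.36 (SE 0.072) for Slc1a3, -3.44 (SE 0.115) for Slc6a11 and -3.43 (SE 0.096) for Glul, a difference of 10.3-, 10.9- and 10.8-fold. Glud1 (-1.88, SE 0.061) and Abat (-0.63, SE 0.099) differed in the same direction by less. Gad1 (0.61, SE 0.078) and Gad2 (0.59, SE 0.122) differed in the other, towards neurons. Gad1 was at 420 to 488 CPM in neuron input and 595 to 630 CPM in astrocyte RiboTag input. In the IP it was at 602 to 738 and 571 to 646 CPM, which overlap. The Gad1 difference is therefore relative to a lower neuron input. For Gad2 the inputs overlapped (317 to 417 and 400 to 425 CPM), and the IP groups did not (405 to 561 and 335 to 368 CPM). Adjusted p-values ranged from 5.8e-16 for Slc1a3 to 3.6e-04 for Gad2. The median of all genes was 0.02.

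The 2 cohorts are separate, and their inputs were not alike for every member. Slc1a2 was at 1963 to 2156 CPM in astrocyte RiboTag input and at 3899 to 5740 CPM in the remaining 20 libraries of input or bulk RNA. The other 7 members were closer to the remaining libraries. Slc1a3 was at 435 to 446 against 449 to 605 CPM, Glul at 1351 to 1443 against 1249 to 1996 CPM and Abat at 713 to 771 against 459 to 688 CPM. Gapdh, a gene with many processed copies in the genome, also separated this cohort, at 608 to 660 CPM against 2.53 to 5.94 CPM in those 20. Cortical neuron markers, at 96.6 to 114 CPM there, were at 411 to 577 CPM in neuron RiboTag input but at 108 CPM in SAPAP3 WT input replicate 1, whose Slc1a2 was at 3911 CPM. Their part in the Slc1a2 input level was not tested, and what marks this cohort and the Slc1a2 difference cannot be told apart. In the neuron IP Slc1a2 was at 1916 to 2387 CPM. IP levels of Slc1a2 differed less between the astrocyte RiboTag cohort (20780 to 23170 CPM) and SAPAP3 WT (13830 to 21040 CPM), which overlap. The log2(FC) of 3.64 for Slc1a2, its rank and its difference of -4.36 are therefore relative to a low input. In the SAPAP3 cohort its log2(FC) was 2.00 in WT and 2.06 in KO, below that of Slc1a3 (2.39 and 2.53).

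In the SAPAP3 cohort the same 6 genes were called higher in the IP of both genotypes. For WT the count was 6 of 8 higher and 0 lower, with 10.9% of 15587 genes called higher and 12.1% lower. For KO it was 6 of 8 and 0, with 12.3% of 15583 genes called higher and 11.5% lower. None of the 6 overlapped between IP and input in either genotype. The share of all genes without overlap was not counted. Unadjusted p, another measure, was under 0.05 for 10942 genes in WT and 11551 in KO. With the share without overlap unknown, the lack of overlap is not read as a trait of the 6. The median log2(FC) of the 8 was 1.65 in WT and 1.77 in KO, and that of all genes -0.03 and 0.00. Astrocyte markers were higher in these IP groups, as given above, and 4 of 10 oligodendrocyte markers in WT and 5 of 10 in KO were called higher as well. GABAergic interneuron markers summed to 563 to 659 CPM in WT IP against 268 to 326 CPM in WT input, with 5 of 8 called higher, and to 526 to 622 CPM in KO IP against 335 to 353.3 CPM in KO input, with 1 of 8 called higher. The part of these cell types in the members' values, Gad1 included, was not tested.

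Both glutamate transporters rose in the IP of the SAPAP3 cohort. Slc1a2 was at 3911, 5075, 5394 and 4672 CPM in WT input and 13830, 17230, 21040 and 15510 CPM in WT IP, a log2(FC) of 2.00 (SE 0.169, adjusted p = 6.9e-06). In KO it was at 5293, 5740, 5347 and 4560 CPM in input and 18010, 21600, 20450 and 15660 CPM in IP (log2(FC) 2.06, SE 0.141). The lowest WT input and the lowest WT IP belonged to the same mouse, replicate 1, whose input stood apart by markers. Without both of its libraries the WT log2(FC) of Slc1a2 was 2.04 and 6 of 8 genes were still called higher. Slc1a3 was at 527, 580, 530 and 568 CPM in WT input and 2062, 2918, 2577 and 2666 CPM in WT IP (log2(FC) 2.39, SE 0.115). In KO it was at 533, 605, 539 and 535 CPM in input and 2362, 3214, 2869 and 2620 CPM in IP (log2(FC) 2.53, SE 0.110). IP and input were far apart in both genotypes.

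The GABA transporter and the enzymes were called in both genotypes too. Slc6a11 was at 336, 378, 466 and 431 CPM in WT IP and 394, 385, 453 and 449 CPM in KO IP, against 88.7 to 139 CPM in the inputs, with a log2(FC) of 2.15 (SE 0.123) in WT and 2.20 (SE 0.128) in KO. Glul was at 3534, 4068, 4998 and 4691 CPM in WT IP and 4003, 4603, 5399 and 4781 CPM in KO IP, against 1249 to 1653 CPM in the inputs (log2(FC) 1.77, SE 0.133, and 1.84, SE 0.111). The lowest IP library of each genotype was still more than all inputs for both genes. Glud1 was at 635, 589, 758 and 654 CPM in WT IP and 656, 613, 864 and 762 CPM in KO IP, against 234 to 279 CPM in the inputs (log2(FC) 1.52, SE 0.096, and 1.70, SE 0.105). Abat was at 1129, 1081, 1265 and 1114 CPM in WT IP and 981, 990, 1271 and 1120 CPM in KO IP, against 496 to 668 CPM in the inputs. Its log2(FC), the smallest of the 6, was 1.2 in WT (95% interval 0.97 to 1.42) and 1.30 in KO (SE 0.090). The decarboxylases did not pass the limit, with 0.48 (SE 0.120, adjusted p = 0.0055) and 0.43 (SE 0.096, adjusted p = 0.0019) for Gad1 and 0.18 for Gad2 in each genotype (adjusted p = 0.23 and 0.19). For these 2 genes the CPM of IP and input overlapped in both genotypes.

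Whether loss of SAPAP3 changed the cycle was asked in 3 comparisons of KO and WT. None of the 8 genes was called in input, IP or bulk RNA, and none had an unadjusted p under 0.05. DESeq2 and limma voom also called none of them. In all genes 1 of 15591 (0.00641%) was called in input, 4 of 15198 (0.0263%) in IP and 0 of 16020 (0%) in bulk RNA, where 792 had an unadjusted p under 0.05 and DESeq2 called 17. So few calls over the whole table leave little against which to read the members' count. The CPM of KO and WT overlapped for every member in all 3. The share of all genes that overlapped was not counted, so the overlap is not read as a result about the members. By another measure, 869 genes in input and 399 in IP had an unadjusted p under 0.05.

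Slc1a2 was 0.16 higher on the log2 scale in KO input (95% interval -0.13 to 0.46), 0.18 higher in KO IP (-0.17 to 0.54) and 0.04 higher in KO bulk RNA (-0.21 to 0.29). None of these differences exceeded the spread between mice. For Slc1a3 the values were 0.03 (-0.11 to 0.18), 0.13 (-0.16 to 0.43) and 0.09 (-0.05 to 0.23). For Slc6a11, which had 88.7, 104, 114 and 102 CPM in WT input and 95.7, 139, 91.7 and 96.9 CPM in KO input, they were 0.08, 0.08 and 0.10. The highest bound among the glutamate transporters was 0.54 on the log2 scale.

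The enzymes gave small values of both signs. Glul differed by 0.11 in input, 0.14 in IP and -0.06 in bulk RNA, and Glud1 by 0.02, 0.15 and -0.13. Gad1 differed by -0.02, -0.12 and -0.01, Gad2 by -0.05, -0.10 and -0.03, and Abat by -0.11, -0.05 and 0.03. Over the 8 genes the lowest lower bound was -0.42 (Gad1 and Gad2 in IP) and the highest upper bound 0.54 (Slc1a2 in IP). No cell type marker was called, but some moved by more than the members. Cortical neuron markers were at 0.28 to 0.62 in input, 0.06 to 0.85 in IP and 0.04 to 0.17 in bulk RNA. Microglia markers were at -0.39 to -0.15 in input, 0.01 to 0.99 in IP and -0.16 to 0.02 in bulk RNA. All 10 spiny neuron markers had negative values in KO, -0.49 to -0.20 in input, -0.48 to -0.17 in IP and -0.36 to -0.08 in bulk RNA. The 10 astrocyte markers were at 0.04 to 0.30 in IP, -0.16 to 0.26 in input and -0.31 to 0.13 in bulk RNA. Their part in the members' values was not tested. In bulk WT the decarboxylases and Abat split by library. Gad2 was at 413, 623, 613 and 418 CPM, Gad1 at 488, 661, 657 and 503 CPM and Abat at 510, 688, 664 and 461 CPM, so that replicates 2 and 3, those with high spiny neuron markers, were high for all 3. Without these 2 libraries the KO minus WT log2(FC) was 0.27 for Gad2 (adjusted p = 0.16), 0.19 for Gad1 and 0.26 for Abat, and still 0 of 8 genes were called.

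The change of IP over input did not differ detectably between genotypes. In the interaction fit 0 of the 8 genes and 0 of 16059 genes (0%) passed in edgeR, with 203 genes at an unadjusted p under 0.05 and 1 called by DESeq2. The members' differences ranged from -0.09 (Gad1) to 0.14 (Glud1), with 95% intervals between -0.45 and 0.50.

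**Figure D3:**
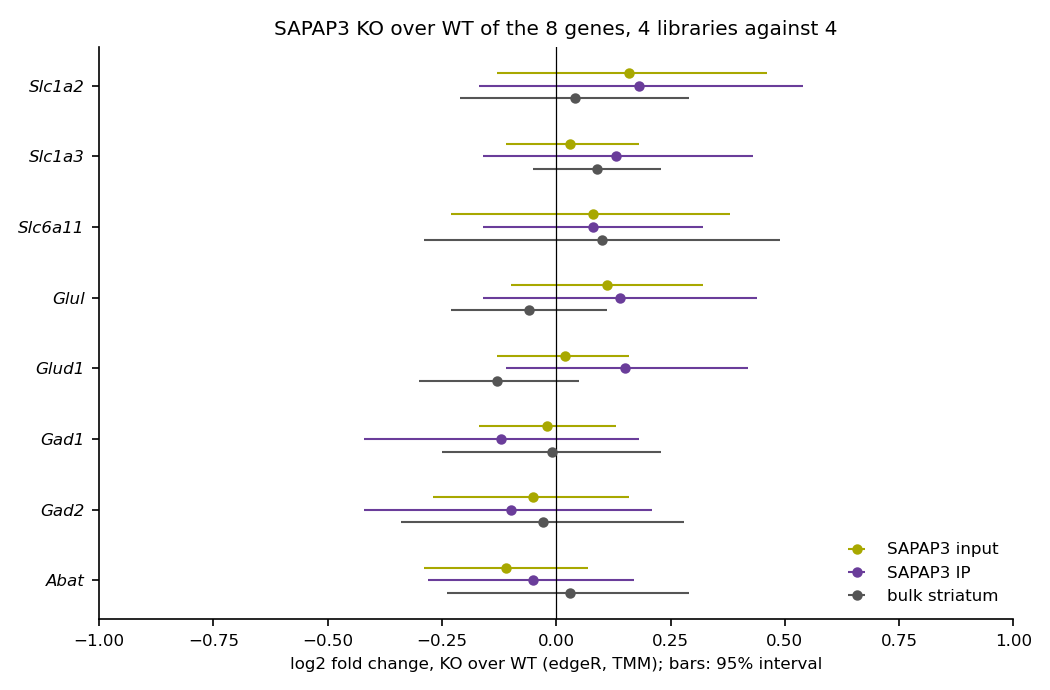
Log2(FC) of SAPAP3 KO over WT (horizontal axis) for the 8 genes in input, IP and bulk striatum, 4 libraries against 4, with 95% intervals. All point values lie between -0.13 and 0.18 and every interval includes 0.

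Compared per length of merged exons, Glul had the highest mean of the members in each of the 10 groups and Slc1a2 the next in 9 of them. This order depended on the length used. Per length of a single transcript, a choice made after seeing the data, Glul was first in 9 groups and Slc1a2 next in 8, and in the neuron IP Gad1 (205 ± 17.6) had a higher mean than Glul (192 ± 9.59), with overlapping libraries. In astrocyte RiboTag input Slc1a2 (155 ± 6.98 FPKM) and Abat (160 ± 6.67 FPKM) overlapped. The per-length level, FPKM, is CPM divided by the merged exon length in kilobases. In the astrocyte IP they were 2136 ± 219 (SD, n = 4) for Glul, 1651 ± 91.6 for Slc1a2, 666 ± 37.5 for Slc1a3, 283 ± 14.1 for Glud1 and 282 ± 13.5 for Abat. Gad1 (108 ± 6.08), Slc6a11 (101.0 ± 6.63) and Gad2 (35.5 ± 1.65) were the lowest. In the neuron IP Glul was at 191 ± 9.54, Slc1a2 at 160 ± 14.7, Abat at 125 ± 14.5, Gad1 at 124 ± 10.6, Slc1a3 at 81.2 ± 6.08, Glud1 at 67.5 ± 3.80, Gad2 at 48.1 ± 6.83 and Slc6a11 at 10.2 ± 0.928 FPKM. Abat and Gad1, neighbours in that order, did not differ beyond their spread.

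By mean CPM the order of groups for Slc1a2 was astrocyte IP, SAPAP3 KO IP and SAPAP3 WT IP, whose ranges overlap from one to the next. A gap followed, and then came the SAPAP3 inputs, both bulk groups and neuron input, also overlapping. Neuron IP and astrocyte RiboTag input were lowest and overlapped. The neuron IP was the lowest group for Slc1a3, Slc6a11, Glul and Glud1, and was apart from the next group for each. For Gad1 the lowest group by mean was neuron input, apart from the next group, SAPAP3 KO input. Its highest library (487.6 CPM) reached the lowest of bulk WT (487.5 CPM). For Gad2 all neighbours overlapped.

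Ratios of 2 genes within a library need no scaling between libraries. The ratio of Slc1a2 to Slc1a3 in FPKM was 1.42 to 1.53 in astrocyte RiboTag input and 2.45 to 2.51 in its IP, a log2 difference of 0.744 (SE 0.0302). In the other cohorts the value was negative. It was -0.257 (SE 0.131) for neuron RiboTag, -0.467 (SE 0.091) for SAPAP3 KO and -0.383 (SE 0.148) for SAPAP3 WT, where the ratio was 2.35 to 3.22 in input and 1.84 to 2.58 in IP. Within mice, the ratio was higher in IP in 4 of 4 of the astrocyte RiboTag cohort, the one with the low Slc1a2 input, and lower in IP in 4 of 4 of each other cohort. The exact permutation test of 4 against 4, which leaves the pairing aside, gave p = 0.0286 for the astrocyte and KO cohorts, p = 0.0571 for WT and p = 0.114 for the neuron cohort. Of 28 such tests, 14 of them on the ratios given here, none passed after adjustment (smallest adjusted p = 0.0615), and 0.029 is the smallest p that 4 against 4 allows.

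Gad1 to Gad2 was 2.54 to 2.70 in astrocyte RiboTag input and 2.95 to 3.11 in its IP, a log2 difference of 0.216 (SE 0.027). In the neuron RiboTag cohort it was 2.04 to 2.46 in input and 2.33 to 2.79 in IP (0.237, SE 0.0813), and there the libraries overlapped between mice. The difference was 0.291 (SE 0.0671) in SAPAP3 WT and 0.26 (SE 0.0392) in SAPAP3 KO. Within mice the ratio was higher in IP in 4 of 4 of each cohort, by 0.168 to 0.331 in the neuron RiboTag cohort. A paired exact permutation test of 4 mice cannot go below p = 0.125, the value it gave in each cohort. Unpaired, the tests gave an adjusted p of 0.107 for the neuron RiboTag cohort and 0.0615 for the other 3 by exact permutation.

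**Figure D4:**
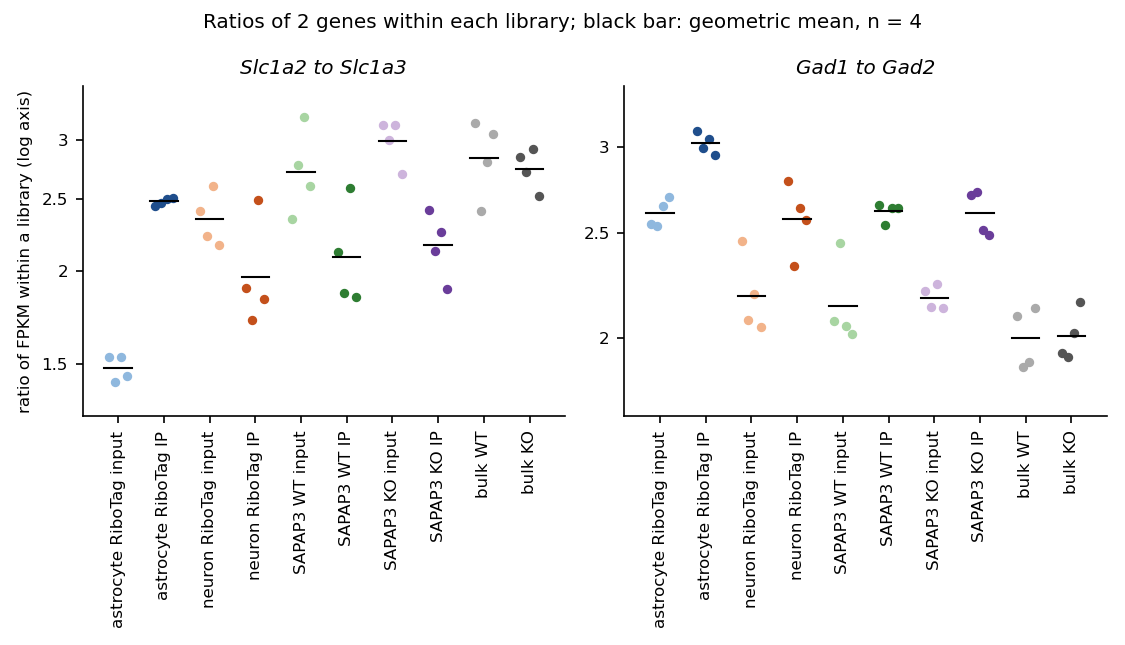
Ratio of the FPKM of 2 genes within each library (log axis, a panel per ratio) in the 10 groups, with the geometric mean as a black bar. Slc1a2 to Slc1a3 is lowest in astrocyte RiboTag input (1.42 to 1.53), and Gad1 to Gad2 is highest in astrocyte RiboTag IP (2.95 to 3.11).

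A further 26 genes of the pathway gave the setting of the 8, and 25 of them were tested in the IP comparisons, Slc6a12 being too low. In the astrocyte IP 9 were called higher and 2 lower, in the neuron IP 1 and 4, in SAPAP3 WT IP 8 and 3, and in SAPAP3 KO IP 8 and 4. Of all genes tested, 13.4% were called higher and 13.5% lower in the astrocyte IP, and 0.420% and 15.8% in the neuron IP. The shares were 10.9% and 12.1% in SAPAP3 WT IP and 12.3% and 11.5% in SAPAP3 KO IP. No gene of the lists was called in a comparison of KO and WT. Their median log2(FC) was 0.15 in the astrocyte and 0.07 in the neuron IP, near that of all genes.

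Of the other plasma membrane transporters, 3 of 6 tested were called higher and 1 lower in the astrocyte IP. Slc7a11, the cystine-glutamate exchanger, had a log2(FC) of 2.27 there and -1.09 in the neuron IP, and Slc1a4, a transporter of neutral amino acids, 1.81 and 0.04. Slc6a13, the GABA transporter GAT2 known from the meninges and vessels, was lower in both, by -4.93 and -4.47. The neuronal glutamate transporter Slc1a1 had -0.42 and 0.45, within the limit.

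Among the genes for glutamine transport and its conversion to glutamate, Slc38a3 (SN1), which exports glutamine from astrocytes, was called higher in the astrocyte IP (log2(FC) 2.56) and in both SAPAP3 IP groups (2.30 in WT, 2.47 in KO), and had -0.42 in the neuron IP. Slc38a5 was lower in both RiboTag cohorts (-3.54 and -3.67). Gls2 was within the limit, at -0.46 and 0.55 in the astrocyte and the neuron IP. For both lists 1 or more genes therefore moved with the members and others did not.

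Of the 4 vesicular transporters, Slc17a8 (VGLUT3) was called higher in the astrocyte IP (2.82), the neuron IP (1.13) and both SAPAP3 IP groups (2.07 and 2.16). Slc32a1, the vesicular GABA transporter of GABAergic neurons, had -0.35 in the astrocyte and 0.81 in the neuron IP. Slc17a6 and Slc17a7 had -0.96 and 0.83 in the astrocyte IP and -0.03 and 0.17 in the neuron IP. In the SAPAP3 cohort both had negative values, with Slc17a6 called lower in WT (-1.33) and KO (-1.49) and Slc17a7 at -1.83 in WT (adjusted p = 0.06) and called lower in KO (-1.62). Of the 9 genes for mitochondrial carriers and metabolism, 4 were called higher in the astrocyte IP, namely Maob (2.68), which oxidizes monoamines, Slc25a18 (1.70), a mitochondrial glutamate carrier, Aldh5a1 (1.19), which acts after GABA transaminase, and Pc (1.06), pyruvate carboxylase. In the neuron IP Slc25a18 was called lower (-1.80) and none was called higher, with values up to 0.86.

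**Figure D5:**
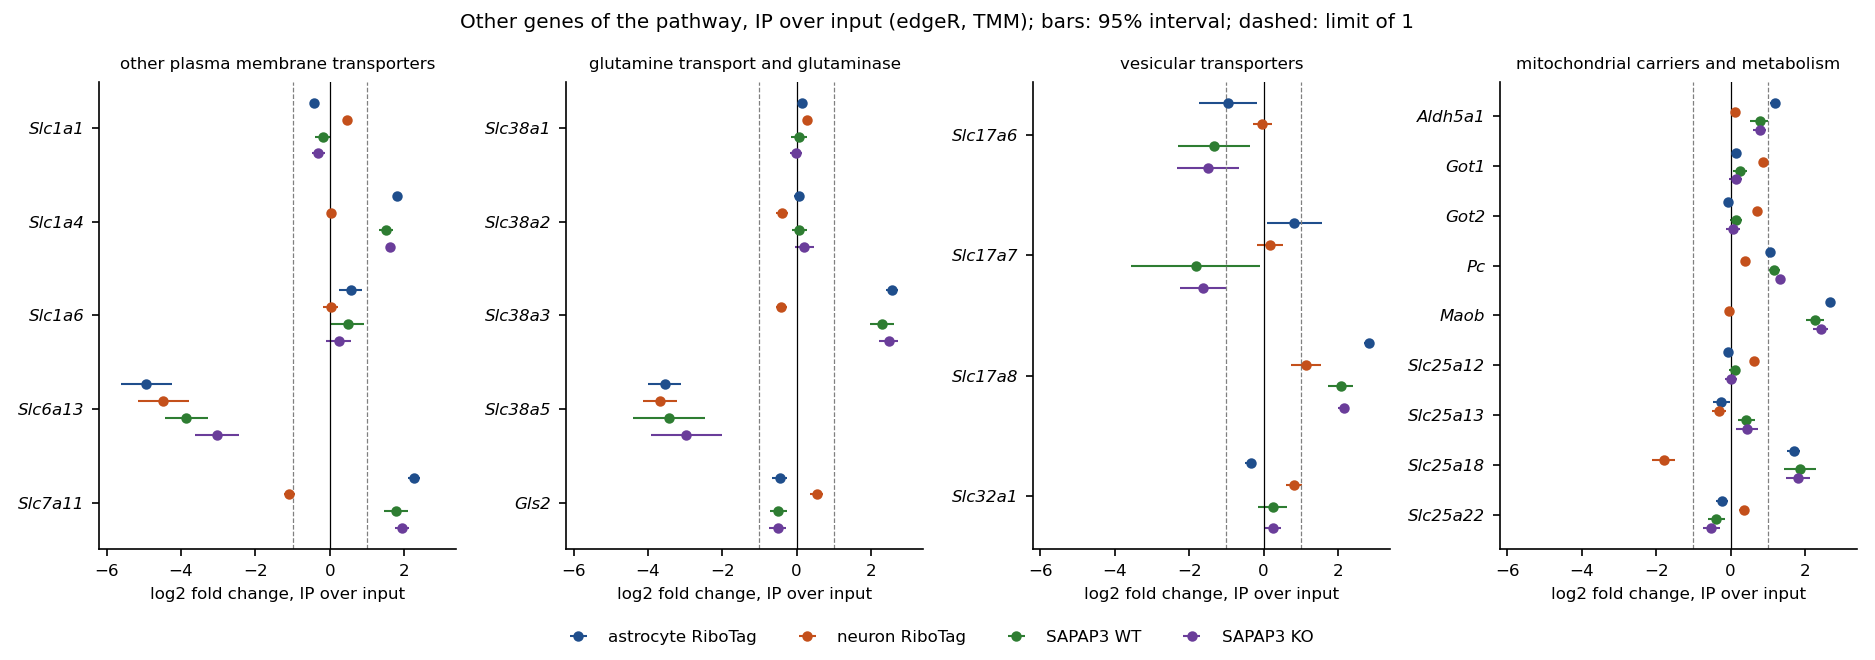
Log2(FC) of IP over input (horizontal axis) for 23 tested genes of the 4 pathway lists in the 4 cohorts, with 95% intervals and dashed lines at the limit of 1. Slc1a4, Slc7a11, Slc38a3, Maob and Slc25a18 are above 1 in the astrocyte RiboTag and SAPAP3 cohorts and at or below 0.04 in the neuron cohort.

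The genes whose group means were most like each member were sought among 10241 genes, by Pearson correlation of log2(CPM + 1) over the 10 groups, as a description only. For Slc1a2 they were Mcc (r = 0.997), Gnao1 (0.996) and Sox6 (0.992), for Slc1a3 Pla2g7 and Crot (both 0.998), and for Slc6a11 Cyp20a1, Gnai3 and Galnt1 (0.997 to 0.998). For Glul they were Rftn2, Smim3 and Psat1 (0.994 to 0.997), for Glud1 Nxn, Pygb and Acsbg1 (0.996 to 0.997), and for Abat Ecel1 and Nubp2 (0.991 and 0.988). The decarboxylases had weaker matches, Ppa2 (0.933), Copg2 and Psmd1 (both 0.894 or less) for Gad1 and Extl2 (0.963), Nbn and Slc9a7 (0.904 and 0.896) for Gad2. The 10 groups share cohorts, depth and the split of IP and input, so that a high value may reflect enrichment in the same IP, which was not tested.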

How the data were processed

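The authors aligned reads to mm10 with STAR and counted them with HTSeq, per their processing notes, and deposited raw counts per gene symbol. Annotation, strand setting and tool versions are not given in the sources used here, and the labels (TruSeq Stranded with RiboZero Gold) and the methods (Nugen Ovation V2) name different library kits. CPM used library totals. FPKM used merged exon lengths of RefSeq GRCm38.p6, found for 99.2% of symbols. Tests were done in R 4.3.3 with edgeR 4.0.16 (filterByExpr, TMM, glmQLFit, glmQLFTest), limma 3.58.1 (voom) and DESeq2 1.42.0, and were tested on simulated data. IP against input was called at adjusted p under 0.05 and log2(FC) beyond 1, other comparisons at adjusted p under 0.05 alone. Ratios were tested with two-sided exact permutation tests, adjusted over 28 tests. Intervals of fold changes are 95%. Copies were sought with minimap2 2.31, and figures drawn with matplotlib 3.10.9.

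The 8 genes and all lists were chosen with earlier results of these data known. All 8 are named throughout. Up to 4 genes per pathway list are named by the size of their change among those tested, and for each member the 3 genes most like it. Slc1a1 and Gapdh fall outside that rule and were chosen after their values were seen. Some genes that the rule names, and ratios with them, are not reported here, but stay in the counts. IP and input were paired by animal in the labels, or by the number in the title in the neuron RiboTag cohort, whose animal numbers differ. Paired libraries deviated together in each cohort (correlation at least 0.248 over 11762 genes). Replicates are separate mice where the labels number animals. Replicate pairs differed by more than sampling noise. Alternatives were other tests, scalings, filters, a replicate block, Xist as a covariate and leaving out libraries.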

Additional observations from a re-analysis of the deposited data

Results flagged for a closer look

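Single libraries stood apart for 6 of the 80 sets of 4 values that were screened with Dixon's test at its 95% critical value, which chance alone passes in about 1 of 20. Slc1a2 was at 4403 CPM in replicate 3 of neuron RiboTag input, where the nearest other library was at 3917. Replicate 2 of SAPAP3 KO input was highest for Slc1a3 (605.1 CPM, next 538.5) and for Slc6a11 (138.5 CPM, next 96.88). Glud1 was highest in replicate 2 of astrocyte RiboTag input (313.9 CPM, next 299.2) and in replicate 4 of bulk KO (290.1 CPM, next 241.7). Gad2 was lowest in replicate 3 of bulk KO (471.9 CPM, next 524.3).

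The change of IP over input differed between the neuron and the astrocyte RiboTag cohort for all 8 genes by the interaction test. On the log2 scale, neuron minus astrocyte, the difference was -4.36 for Slc1a2, -3.36 for Slc1a3, -3.44 for Slc6a11, -3.43 for Glul, -1.88 for Glud1, -0.63 for Abat, 0.61 for Gad1 and 0.59 for Gad2.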

How the results depend on the processing

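Of 528 member values under another test, scaling, filter, block or covariate, 2 lost their call, both for Abat in the astrocyte IP (0.82 with library totals and 0.98 with genes limited to FPKM above 5 in at least 4 libraries), and Gad1 in the astrocyte IP reversed (-0.03 with library totals). The sign of 9 of these values differed from that reported, Gad1 included, and none of them was called. With a library or a mouse left out all 728 kept their call and 44 had the other sign, none of them called. Library totals moved the median of all genes to between -0.20 and -0.25 in the 4 IP comparisons and the share of higher among called genes from 49.8% to 37.2% in the astrocyte IP, from 47.4% to 36.4% in SAPAP3 WT IP and from 51.6% to 38.8% in SAPAP3 KO IP. With FPKM above 5 that share was 64.7% and 65.9% in the last 2, fewer genes were tested, and the genes called were 1702, 507, 1270 and 1423 in the astrocyte, neuron, SAPAP3 WT and SAPAP3 KO IP (4157, 2635, 3590 and 3713 as reported), 7172 in the interaction of neuron and astrocyte IP (11469) and 2 in KO against WT IP (4). DESeq2 called 8 genes for KO against WT in input, 8 in IP and 17 in bulk RNA, and 1 for genotype by IP. A block for the mouse changed no call of a member. In KO against WT IP, where the replicate number pairs no mice, such a block gave 2 genes.

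Leaving out libraries moved the genes called between 0 and 1 in KO against WT input, 0 and 3 in IP and 0 and 5 in bulk RNA. In input 0 were called without KO replicate 2, 3 or 4. In IP 0 were called without WT replicate 4, and 2 without any of WT replicates 1 to 3 or KO replicates 2 to 4. In bulk RNA 1 gene was called without WT replicate 4 and 5 without WT replicates 2 and 3 together, an alternative chosen after seeing the data, as was leaving out both libraries of SAPAP3 WT replicate 1. The causes were not tested.

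None of the ratio tests, at 4 libraries a group, passed after adjustment. Intervals cover the spread between these libraries only.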
